A study of Mus musculus with 27 samples.

Results

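The 9 genes described here code for enzymes of macrophages that make nitric oxide, itaconate or superoxide, serve these pathways by handling arginine or a cofactor, or act on superoxide, haem or quinones, and they were chosen by name: Nos2, Gch1, Ass1, Arg2, Acod1, Cybb, Sod2, Hmox1 and Nqo2. All 9 were among the 45070 genes of the deposited table, and all 9 passed the filter on low values, a normalised read count of 10 or more in 3 or more samples, which kept 13901 genes. The cells were BMDMs (bone marrow-derived macrophages), which are primary cells grown from the marrow of wild type male C57/BL6 mice aged 6 to 8 weeks. All 9 groups, the untreated one included, were first kept for 1 h in DMSO, the solvent of the inhibitors used elsewhere in the study. Cells were then left untreated, or given lipopolysaccharide (LPS, from the wall of Gram-negative bacteria, which macrophages sense through TLR4) at 10 ng/ml or interleukin-4 (IL-4, a cytokine of type 2 immunity) at 10 ng/ml for 0.5, 1, 2 or 4 h, with 3 replicates per group. The RNA was chromatin-associated RNA, which is rich in transcripts that are still being made and in introns, so the values follow RNA synthesis more closely than the stored messenger RNA. The labels do not say whether the 3 replicates came from separate cultures or mice, so p-values measure the spread between these samples, which may be technical.

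Inducible nitric oxide synthase, the product of Nos2, makes nitric oxide from arginine with tetrahydrobiopterin as a cofactor, and GTP cyclohydrolase 1 (Gch1) is the first enzyme of tetrahydrobiopterin synthesis. Argininosuccinate synthetase (Ass1) rebuilds arginine from the citrulline that nitric oxide synthases release, while the mitochondrial arginase Arg2 splits arginine into ornithine and urea. Acod1 decarboxylates cis-aconitate, an intermediate of the TCA cycle, to itaconate, a metabolite with antimicrobial and immune regulatory roles. Cybb codes for the catalytic subunit of the phagocyte NADPH oxidase, which makes superoxide, and Sod2 for the mitochondrial dismutase that turns superoxide into hydrogen peroxide. Hmox1 breaks down haem, and Nqo2 is a quinone reductase.

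The promoter sequences of RefSeq (GRCm38.p6) held 6 of the 9 genes, namely Gch1, Ass1, Acod1, Cybb, Sod2 and Nqo2, of which Nqo2 had 2 start sites. The 250 bases before the start site are printed for Gch1 (chr14:47189414-47189663, minus strand), Acod1 (chr14:103046762-103047011, plus strand), Cybb (chrX:9469325-9469574, minus strand) and Sod2 (chr17:13007589-13007838, plus strand), which rose within 0.5 h of LPS, and for the later riser Ass1 (chr2:31470020-31470269, plus strand). They run 5′ to 3′ on the strand of the gene, and capitals mark letters that match a searched motif on either strand.
Gch1: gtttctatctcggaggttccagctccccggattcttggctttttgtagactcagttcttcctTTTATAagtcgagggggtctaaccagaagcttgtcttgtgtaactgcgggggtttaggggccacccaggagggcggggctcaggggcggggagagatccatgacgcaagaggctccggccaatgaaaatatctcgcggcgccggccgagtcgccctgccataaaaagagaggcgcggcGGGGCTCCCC
Acod1: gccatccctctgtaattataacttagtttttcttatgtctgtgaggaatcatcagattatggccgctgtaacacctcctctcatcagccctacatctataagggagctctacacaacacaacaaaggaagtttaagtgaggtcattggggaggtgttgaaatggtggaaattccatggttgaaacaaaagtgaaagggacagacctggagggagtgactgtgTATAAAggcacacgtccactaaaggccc
Cybb: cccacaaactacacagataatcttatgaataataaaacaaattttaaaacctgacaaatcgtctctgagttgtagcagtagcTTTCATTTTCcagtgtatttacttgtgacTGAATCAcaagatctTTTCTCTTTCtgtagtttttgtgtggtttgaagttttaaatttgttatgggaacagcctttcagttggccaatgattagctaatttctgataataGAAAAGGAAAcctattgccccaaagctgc
Sod2: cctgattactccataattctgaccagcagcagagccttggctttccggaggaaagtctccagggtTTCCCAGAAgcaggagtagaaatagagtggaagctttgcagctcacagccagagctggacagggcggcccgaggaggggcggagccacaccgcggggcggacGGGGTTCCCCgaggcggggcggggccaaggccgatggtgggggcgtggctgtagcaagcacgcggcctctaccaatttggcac
Ass1: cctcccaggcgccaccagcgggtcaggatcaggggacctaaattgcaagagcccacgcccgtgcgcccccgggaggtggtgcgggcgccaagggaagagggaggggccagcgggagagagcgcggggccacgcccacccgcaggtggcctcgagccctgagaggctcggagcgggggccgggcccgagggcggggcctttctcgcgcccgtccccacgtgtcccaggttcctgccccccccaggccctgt

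The motifs searched were the 10-base kappaB consensus of NF-kappaB, the interferon-stimulated response element (a pair of GAAA letters with any 2 bases between them), the interferon-gamma activated site TTCNNNGAA, the AP-1 site TGANTCA, the antioxidant response element TGACNNNGC, the PU.1 box GAGGAAGT and the TATA box TATAAA. A kappaB match lay at bases −10 to −1 before the start site of Gch1 and at −83 to −74 before that of Sod2, and 7.25% of the 32851 RefSeq windows of this length held one. Cybb held 3 matches to the interferon-stimulated response element, at −168 to −159, −124 to −115 and −29 to −20, where 2.98% of all windows held at least 1. An AP-1 match stood between them at −139 to −133 (6.75% of windows). Sod2 also held a match to the interferon-gamma activated site at −185 to −177 (7.02%). The TATA letters lay at −28 to −23 in Acod1 and, on the other strand, at −188 to −183 in Gch1 (12.4%). No matches overlapped in these windows, and neither the window of Ass1 nor those of Nqo2 held any of the 7. A match is a description of letters and says nothing of binding in these cells.

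Library totals ran from 2469768 to 2790981 without LPS and from 3571492 to 4058199 normalised read counts with it. The values had been scaled by the authors on genes taken as invariant, and on that scale the median tested gene stood 0.24 to 0.30 lower in LPS than in untreated cells on the log2 scale. All 8 macrophage markers were tested (summed level 10027 to 19679 per sample), and they did not move alike in LPS. Csf1r held 2052, 1814 and 2048 in untreated and 427, 501 and 441 in LPS 2 h samples. Fcgr1 held 87, 45 and 85 in untreated and 657, 719 and 794 in LPS 2 h samples. Cd3e and Cd3g of T cells, Ly6g of neutrophils and Xcr1 of dendritic cells were listed at 0 in every sample. A listed 0 does not show that a gene was silent, since Txn2, Slc25a1 and Mafg, which many cell types use, were also listed at 0 in all 27 samples. The summed level of the 4 neutrophil markers was 4 to 8 in untreated, 7 to 57 in LPS and 3 to 15 in IL-4 samples, and of these Ngp passed the filter, with 8, 4 and 4 in untreated, 57, 11 and 14 in LPS 2 h and 39, 21 and 19 in LPS 4 h samples. That of the 3 dendritic cell markers was 2 to 6 in untreated, 5 to 96 in LPS and 10 to 22 in IL-4 samples, so that all IL-4 samples lay above the untreated ones. That of the 3 fibroblast markers was 37 to 88, 32 to 211 and 27 to 207 in turn. In every group Col1a1 and Col1a2 of these were highest in replicate 1. Col1a2 held 53, 30 and 22 in untreated, 105, 25 and 26 in LPS 2 h and 128, 27 and 20 in IL-4 2 h samples. The part of these cell types in the results was not tested. Replicate 1 stood apart from replicates 2 and 3 in every group, with an SD of log2 differences over 620 genes of 0.371 to 0.451 between replicates 1 and 2 against 0.138 to 0.287 between replicates 2 and 3.

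LPS changed all 9 genes over its 4 time points, and IL-4 changed 5, namely Gch1, Arg2, Cybb, Hmox1 and Nqo2. These counts stand beside 87.6% of all tested genes for LPS and 40.3% for IL-4 (limma F test, adjusted p under 0.05), so the LPS count is near the share of the whole table. In bulk samples, fewer cells of a type and less RNA per cell cannot be told apart. Over the LPS course 7 of the 9 genes rose at their largest change (77.8%, against 32.9% of all tested genes) and 2 fell, Hmox1 and Nqo2, against 54.7%. The genes were chosen with earlier results of these data known, so such shares describe the 9 and are no test. Over the IL-4 course 1 rose, Arg2 (11.1% against 19.4%), and 4 fell (44.4% against 20.9%). The IL-4 count was 2 without replicate 2 and 2 without replicate 3 in all groups.

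**Figure D1:**
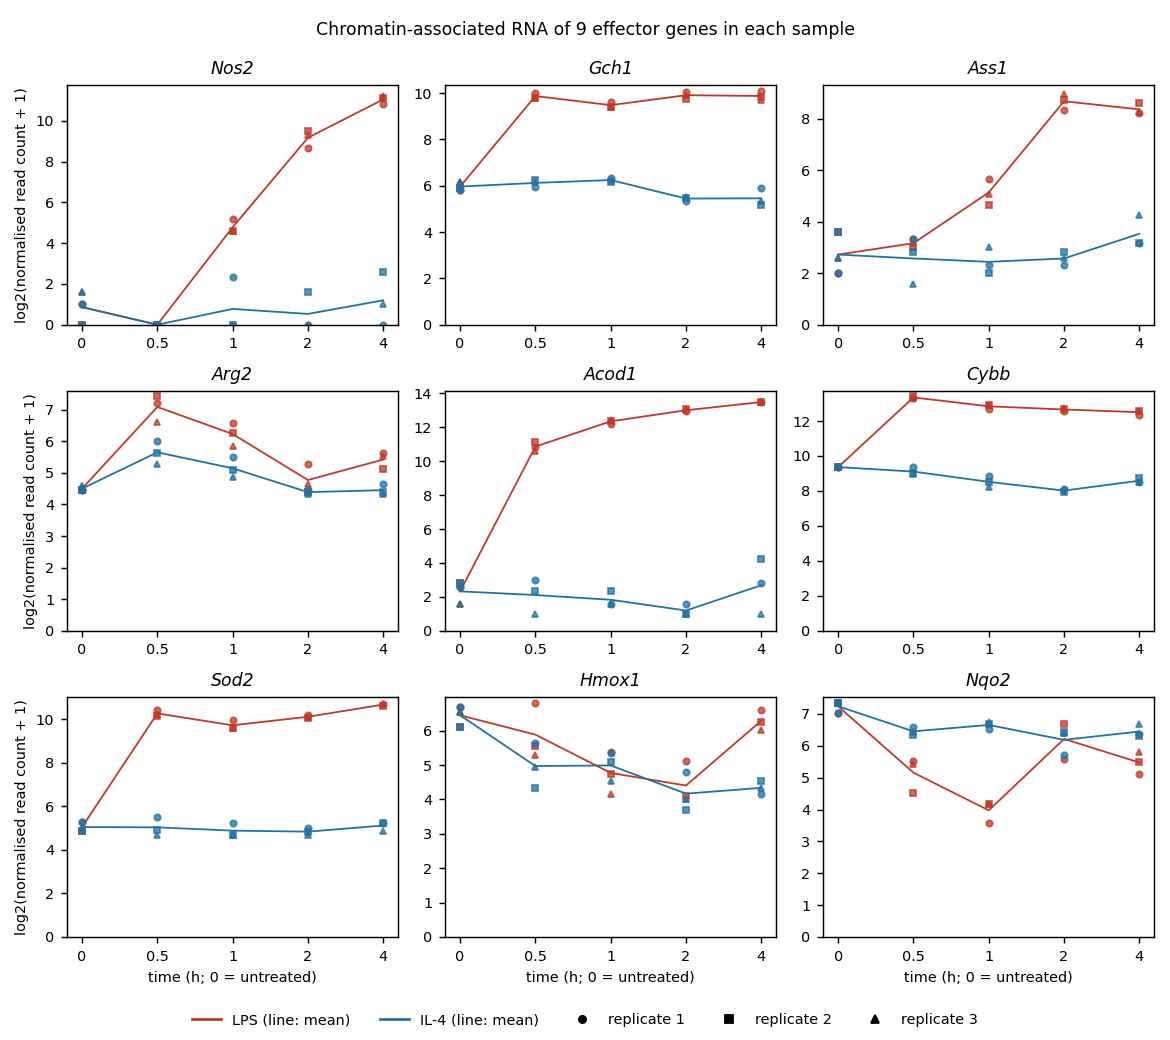
Value of each gene in each of the 27 samples as log2(normalised read count + 1), against time in LPS (red) or IL-4 (blue), with the 3 untreated samples at 0 h; symbols mark replicates and lines join group means. Nos2, Gch1, Ass1, Acod1, Cybb and Sod2 separate widely by stimulus, while the group means of Hmox1 and Nqo2 lie below the untreated mean at every time in both.

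At single time points, LPS raised 5 of the 9 genes after 0.5 h (19.6% of all tested genes were higher), 7 after 1 h (24.8%), 6 after 2 h (26.9%) and 7 after 4 h (25.9%). Lower values were called for 2 genes after 0.5 h (34.4%), 2 after 1 h (39.0%), 2 after 2 h (39.0%) and 1 after 4 h (37.6%). In IL-4, 3 genes were called after 0.5 h (16.3% of all tested genes), 4 after 1 h (21.0%), 4 after 2 h (27.6%) and 4 after 4 h (25.9%). The IL-4 1 h count was 2 without untreated replicate 2 or 3 and 2 without IL-4 1 h replicate 1 or 2. The median log2 difference of the 9 genes was 2.58, 3.48, 3.95 and 3.92 at the LPS times in order, and that of all tested genes was −0.24, −0.30, −0.29 and −0.26. In IL-4 the 9 had medians of −0.22, −0.28, −0.52 and −0.05, and all genes between −0.02 and 0.02. The higher calls made up 36.3% to 40.8% of all calls against untreated at the LPS times, 48.1% to 49.3% after rescaling the libraries by median ratios, and 18.3% to 23.7% after rescaling to equal totals. In IL-4 1133 genes were higher and 1132 lower after 0.5 h, and 936 and 2040 with equal totals, while after 1 h the higher calls were 53.1%, and 39.5% with equal totals. Median ratios moved the median gene up by 0.22 to 0.25 in LPS, and equal totals moved it down by 0.48 to 0.63.

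**Figure D2:**
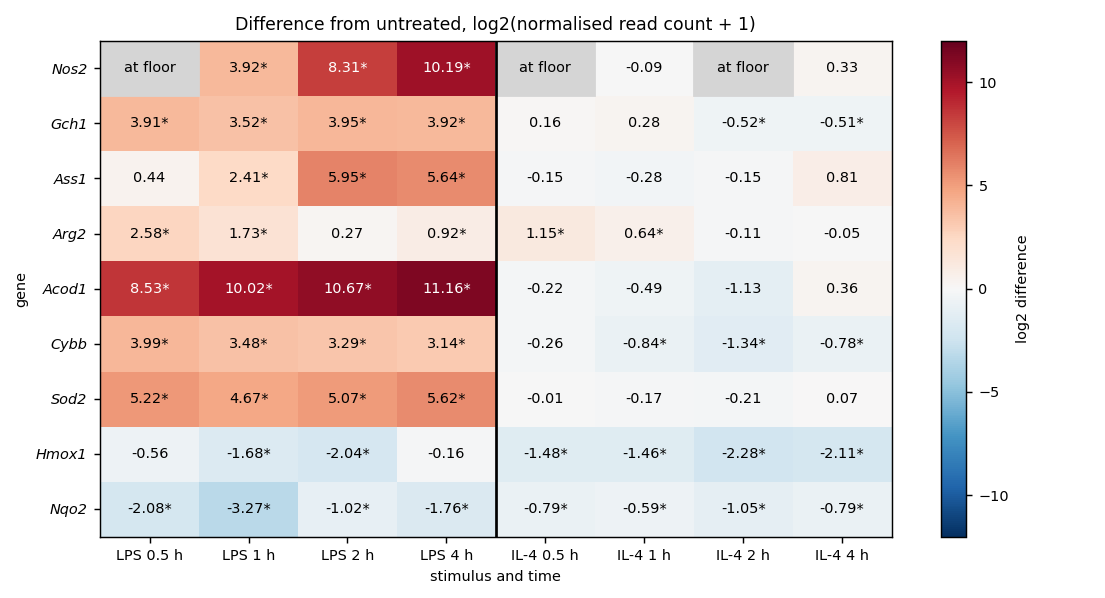
Difference of each gene from untreated cells at each time in LPS and IL-4, on the log2(normalised read count + 1) scale, with the value in each cell, an asterisk where the adjusted p was under 0.05, and grey where both groups held at most 3 normalised read counts in every sample. Acod1 and Nos2 reach 11.16 and 10.19 at LPS 4 h, and the IL-4 columns hold no difference above 1.15.

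Nos2 (chromosome 11, 78920787 to 78960226, plus strand) was barely detected in untreated macrophages and rose late in LPS. Untreated samples held 1, 0 and 2 normalised read counts, and those at LPS 0.5 h held 0, 0 and 0. Values were 35, 23 and 23 after 1 h, 413, 719 and 643 after 2 h, and 1820, 2232 and 2357 after 4 h. The LPS groups did not overlap one another from 0.5 h on, and every sample from 1 h lay above the untreated ones. Against a floor of 3 normalised read counts per sample, the level was at least 9-fold higher at 1 h, at least 197-fold at 2 h and at least 712-fold at 4 h (adjusted p 7.74e-08, 8.75e-12 and 1.11e-12). At 0.5 h both groups were at or under the floor, so no fold is given. The test called Nos2 lower there with an adjusted p of 0.0392, a call that was lost with a pseudocount of 8, without a filter on low values, in a fit of all 27 samples, and on leaving out untreated replicate 1 or 3, any LPS 0.5 h sample, LPS 2 h replicate 3 or LPS 4 h replicate 2 or 3 (adjusted p 0.0505 to 0.21 without those single samples). The 12 IL-4 samples held 0 to 5, and no IL-4 time passed the test (adjusted p over the course 0.677).

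Gch1 (chromosome 14, 47153895 to 47189413, minus strand), which supplies the cofactor of the synthase, rose at once and stayed high. Untreated values were 56, 59 and 70. In LPS they were 1038, 894 and 889 after 0.5 h, 793, 676 and 677 after 1 h, 1054, 867 and 973 after 2 h, and 1102, 909 and 829 after 4 h. All 12 LPS samples lay above all untreated and IL-4 samples. The mean was 15.2-fold higher at 0.5 h (log2 difference 3.91, SE 0.13, adjusted p 3.07e-12) and 15.3-fold at 4 h (3.92, SE 0.13, adjusted p 1.66e-12). It was thus near its highest level while Nos2 was still at 0. The dip at 1 h, with all 3 samples below those of 0.5 h, was −0.39 (SE 0.13, adjusted p 0.0225), a call lost without LPS 0.5 h replicate 1 or without LPS 1 h replicate 2 or 3 (−0.32 to −0.36). In IL-4 the values were 61, 76 and 70 after 0.5 h, 79, 70 and 76 after 1 h, 40, 43 and 45 after 2 h, and 58, 35 and 39 after 4 h. The 2 h samples lay below every untreated one, and Gch1 fell by 0.52 at 2 h (SE 0.17, adjusted p 0.0357) and by 0.51 at 4 h (SE 0.17, adjusted p 0.0416). The 2 h call was lost without untreated replicate 2 or 3 or any one of the 3 IL-4 2 h samples (−0.42 to −0.56, adjusted p 0.0615 to 0.133). That of 4 h was lost on leaving out any of 10 single samples, namely untreated replicates 2 and 3, IL-4 0.5 h replicate 3, all of IL-4 1 h, and replicates 2 and 3 of IL-4 2 h and 4 h (−0.36 to −0.53, adjusted p 0.0507 to 0.167), and the value was −0.78 without replicate 1 in all groups.

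Ass1 (chromosome 2, 31470270 to 31520670, plus strand), which recycles citrulline to arginine, followed the late course of Nos2 but levelled off after 2 h. Its untreated values were 3, 11 and 5. LPS gave 9, 7 and 8 after 0.5 h, 50, 24 and 33 after 1 h, 325, 427 and 491 after 2 h, and 298, 385 and 307 after 4 h. The 0.5 h samples lay within the untreated range, and from 1 h on all LPS samples lay above it. The mean was 5.63-fold higher at 1 h (log2 difference 2.41, SE 0.34, adjusted p 1.66e-05), 65.4-fold at 2 h (5.95, adjusted p 4.81e-10) and 52.1-fold at 4 h (5.64, adjusted p 8.71e-10). At 0.5 h the difference of 0.44 did not pass (95% CI −0.28 to 1.16, adjusted p 0.29), and without untreated replicate 2, the highest untreated sample, it was 0.87 with an adjusted p of 0.0244. IL-4 samples held 2 to 18, and the course did not pass (adjusted p 0.346).

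Arg2 (chromosome 12, 79130788 to 79156301, plus strand), the arginase that competes for the same substrate, was the one gene of the 9 that rose in both stimuli, and it rose early and briefly. Untreated values were 21, 21 and 23. LPS samples held 147, 172 and 97 after 0.5 h, 94, 76 and 57 after 1 h, 38, 20 and 24 after 2 h, and 48, 34 and 45 after 4 h. IL-4 samples held 64, 49 and 38 after 0.5 h, 44, 33 and 28 after 1 h, 21, 20 and 19 after 2 h, and 24, 20 and 19 after 4 h. At 0.5 and 1 h every sample of both stimuli lay above the untreated ones, and at 2 h both groups overlapped them. The mean was 6.4-fold higher at LPS 0.5 h (log2 difference 2.58, SE 0.27, adjusted p 1.21e-06) and 2.32-fold higher after 0.5 h of IL-4 (1.15, SE 0.20, adjusted p 0.00135). The IL-4 0.5 h call was lost without replicate 2 in all groups (1.13, adjusted p 0.0969). The rise in LPS exceeded that in IL-4 by 1.44 at 0.5 h (SE 0.25, adjusted p 3.74e-05) and by 1.09 at 1 h (SE 0.25, adjusted p 0.0006). At IL-4 1 h the rise of 0.64 (adjusted p 0.0385) was lost on leaving out any untreated sample, IL-4 1 h replicate 1 or 2, or IL-4 2 h replicate 2 or 3 (0.47 to 0.69, adjusted p 0.0506 to 0.161). It was also lost under both rescalings. At LPS 4 h Arg2 was higher than untreated by 0.92 (SE 0.27, adjusted p 0.00731), and by 0.33 after rescaling to equal totals (adjusted p 0.263). The non-coding gene Gm40462 lies on the other strand inside Arg2 over 8547 bases. It held 9, 7 and 8 in untreated cells, 52, 67 and 38 at LPS 0.5 h and 25, 18 and 15 at IL-4 0.5 h, so the pair moved alike, and as the sources do not say whether counting used strand, their reads cannot be told apart.

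Acod1 (chromosome 14, 103047012 to 103056573, plus strand), the itaconate enzyme, had the largest fitted rise of the 9 genes at every LPS time. Untreated samples held 5, 6 and 2 normalised read counts. In LPS it reached 1841, 2249 and 1542 after 0.5 h, 4717, 5378 and 5553 after 1 h, 7880, 8562 and 8100 after 2 h, and 11256, 11459 and 11619 after 4 h. Successive LPS groups did not overlap. The mean was 433-fold higher at 0.5 h (log2 difference 8.53, SE 0.23, adjusted p 1.95e-13) and 2641-fold higher at 4 h. In IL-4 the samples held 1 to 18, and the course did not pass (adjusted p 0.422). IL-4 4 h replicate 2 held the 18, while replicates 1 and 3 held 6 and 1. The non-coding gene Gm41235 shares 1729 bases with Acod1 on the other strand, at its 5′ end, and rose with it to 2131, 2400 and 2448 at LPS 4 h from at most 1 in untreated samples. As the sources do not say whether counting used strand, reads of the shared bases cannot be told apart.

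Cybb (chromosome X, 9435254 to 9469324, minus strand), the superoxide-making subunit of the NADPH oxidase, was already well expressed and moved in opposite directions in the 2 stimuli. Untreated values were 655, 662 and 657. LPS samples held 10114, 11091 and 10153 after 0.5 h, 6653, 7785 and 7608 after 1 h, 6013, 6602 and 6809 after 2 h, and 5196, 6188 and 6096 after 4 h. The highest group was thus the earliest one, and all LPS samples lay far above the untreated range. The mean was 15.9-fold higher at 0.5 h (log2 difference 3.99, SE 0.10, adjusted p 1.48e-13) and 8.86-fold higher at 4 h (3.14, SE 0.10, adjusted p 1.17e-12). IL-4 gave 661, 512 and 494 after 0.5 h, 454, 362 and 299 after 1 h, 274, 242 and 261 after 2 h, and 370, 419 and 363 after 4 h. From 1 h every IL-4 sample lay below every untreated one. The difference was −0.84 after 1 h (SE 0.14, adjusted p 0.0005), −1.34 after 2 h (SE 0.14, adjusted p 6.52e-06) and −0.78 after 4 h (SE 0.14, adjusted p 0.000832), and the step from 2 to 4 h was 0.56 (SE 0.14, adjusted p 0.0311), which did not pass without any 1 of the 6 IL-4 samples of these times (0.50 to 0.61, adjusted p 0.0526 to 0.112). At 2 h the untreated mean was 2.54-fold that in IL-4.

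Sod2 (chromosome 17, 13007839 to 13018119, plus strand), the mitochondrial enzyme that removes superoxide, rose with Cybb in LPS and did not pass the test in IL-4. It held 38, 28 and 31 in untreated samples. In LPS the values were 1378, 1118 and 1208 after 0.5 h, 1000, 774 and 774 after 1 h, 1185, 1050 and 1090 after 2 h, and 1676, 1580 and 1638 after 4 h. All 12 LPS samples lay above all other samples, and the 4 h group lay above the earlier ones. The mean was 38.2-fold higher at 0.5 h (log2 difference 5.22, SE 0.13, adjusted p 1.37e-13) and 50.4-fold at 4 h (5.62, SE 0.13, adjusted p 4.08e-14). The 12 IL-4 samples held 25 to 44, and the IL-4 course did not pass (adjusted p 0.781). The 95% CI of the IL-4 difference was −0.70 to 0.28 for 2 h, while for 4 h it was −0.42 to 0.56.

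Hmox1 (chromosome 8, 75093618 to 75100593, plus strand), the enzyme that opens the haem ring, fell in both stimuli, and at 4 h its LPS samples overlapped the untreated ones while its IL-4 samples did not. Untreated values were 103, 68 and 92. LPS samples held 112, 46 and 38 after 0.5 h, 41, 26 and 17 after 1 h, 34, 16 and 15 after 2 h, and 96, 75 and 64 after 4 h. All samples of 1 and 2 h lay below the untreated ones, and those of 4 h overlapped them. It fell by 1.68 at 1 h (SE 0.40, adjusted p 0.00203) and by 2.04 at 2 h (SE 0.40, adjusted p 0.000379), where the untreated mean was 4.05-fold that in LPS. From 2 to 4 h it rose by 1.88 (SE 0.40, adjusted p 0.00325), and at 4 h the difference from untreated was −0.16 (95% CI −1.02 to 0.70). At 0.5 h replicate 1 stood above the other two, and the difference of −0.56 (adjusted p 0.258) was −1.03 without LPS 0.5 h replicate 1 (adjusted p 0.0348) and passed in a fit blocked on the replicate number. IL-4 samples held 49, 19 and 30 after 0.5 h, 40, 33 and 22 after 1 h, 27, 12 and 15 after 2 h, and 17, 22 and 19 after 4 h. Every IL-4 sample lay below every untreated one. The difference was −1.48 after 0.5 h (adjusted p 0.00926), −1.46 after 1 h (adjusted p 0.00767), −2.28 after 2 h (adjusted p 0.000224) and −2.11 after 4 h (adjusted p 0.00047), each with an SE of 0.35. The 0.5 h call was lost without replicate 2 or without replicate 3 in all groups (−1.32 and −1.42, adjusted p 0.109 and 0.171). Without replicate 3 in all groups the 1 h call (−1.18, adjusted p 0.221) and the IL-4 course (adjusted p 0.0837) were lost as well. At 4 h LPS and IL-4 differed by 1.95 (SE 0.41, adjusted p 0.000177).

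Nqo2 (chromosome 13, 33964659 to 33988465, plus strand) fell in both stimuli, most at LPS 1 h. The study listed its protein as a target of inhibitors because the gene was regulated in these samples, so its direction is not independent evidence. Untreated samples held 131, 161 and 161. In LPS the values were 45, 22 and 42 after 0.5 h, 11, 17 and 17 after 1 h, 47, 101 and 83 after 2 h, and 34, 44 and 55 after 4 h. All 12 LPS samples lay below the untreated ones. The difference was −2.08 after 0.5 h (SE 0.31, adjusted p 4.9e-05) and −3.27 after 1 h (SE 0.31, adjusted p 2.92e-07), where the untreated mean was 10.1-fold that in LPS, and then rose by 2.24 from 1 to 2 h (SE 0.31, adjusted p 2.58e-05). The difference at 2 h, −1.02 (adjusted p 0.00936), was −0.71 without LPS 2 h replicate 1, the lowest of its group (adjusted p 0.0575), and −1.68 after rescaling to equal totals. In IL-4 it held 95, 80 and 86 after 0.5 h, 92, 102 and 106 after 1 h, 52, 85 and 84 after 2 h, and 82, 78 and 101 after 4 h. All 12 lay below the untreated samples as well. The IL-4 difference was −0.79 after 0.5 h (adjusted p 0.00638), −0.59 after 1 h (adjusted p 0.028), −1.05 after 2 h (adjusted p 0.000439) and −0.79 after 4 h (adjusted p 0.00412), and the 1 h call was lost without untreated replicate 2 or 3 or IL-4 1 h replicate 1 or 2 (−0.53 to −0.60, adjusted p 0.0649 to 0.0961). The calls at 0.5, 1 and 4 h were each lost without replicate 2 or without replicate 3 in all groups (−0.55 to −0.85, adjusted p 0.0568 to 0.235). That of 0.5 h was also lost in the fit of all 27 samples (adjusted p 0.0627).

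The whole span of Nqo2, 23807 bases, lies inside Serpinb6a on the other strand, and without knowledge of strand in the counting their reads cannot be told apart. Serpinb6a held 466, 500 and 555 in untreated samples and 182, 136 and 155, 95, 152 and 127, 138, 188 and 169, and 88, 109 and 144 at the 4 LPS times in order. Its difference was −1.69 after 0.5 h (adjusted p 5.06e-06) and −2.04 after 1 h (adjusted p 4.03e-07), so both genes fell. From 1 to 2 h, where Nqo2 rose by 2.24, the difference of Serpinb6a was 0.42 (SE 0.20, adjusted p 0.111). In IL-4 the 12 samples of Serpinb6a held 192 to 311, all below its untreated ones.

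The 7 genes that rose in LPS reached their highest level at different times. Relative to the highest LPS group mean of each gene, Cybb and Arg2 were at 100% and Gch1 at 97.5% at 0.5 h, Sod2 at 75.7%, Acod1 at 16.4%, Ass1 at 1.93% and Nos2 at 0%. At 2 h Ass1 and Gch1 were at 100%, Acod1 at 71.5%, Sod2 at 67.9%, Cybb at 61.9%, Nos2 at 27.7% and Arg2 at 19.7%. At 4 h Nos2, Acod1 and Sod2 were at 100%, Gch1 at 98.1%, Ass1 at 79.7%, Cybb at 55.7% and Arg2 at 30.5%. Gch1 and Cybb were thus at or near their highest level at a time when neither Nos2 nor Ass1 had risen.

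**Figure D3:**
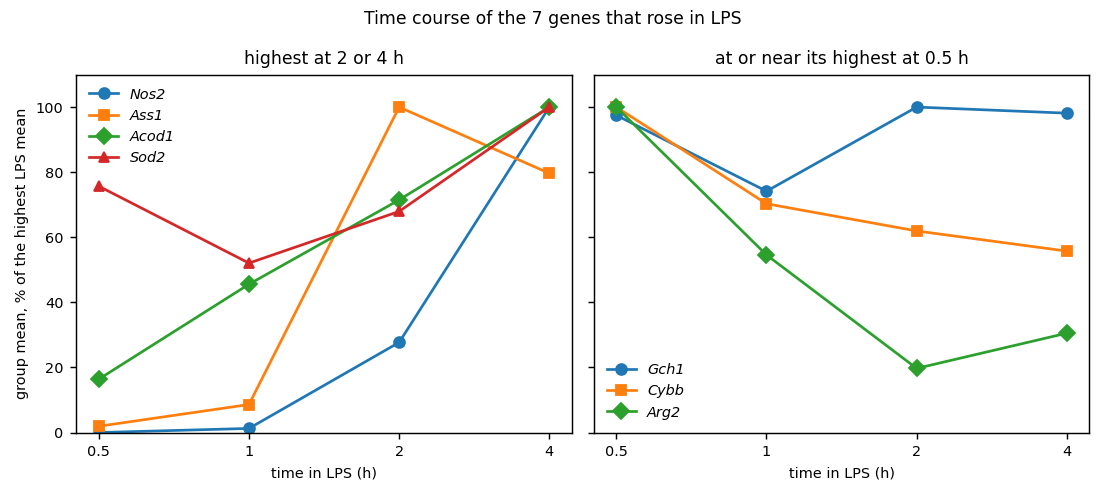
Group mean at each LPS time as a percentage of the highest LPS group mean of the same gene (3 samples per point), for the 7 genes that rose; genes highest at 2 or 4 h are on the left and those at or near their highest level at 0.5 h on the right. Nos2 is at 0% at 0.5 h and 27.7% at 2 h, while Cybb goes from 100% at 0.5 h to 55.7% at 4 h.

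Between 0.5 and 1 h of LPS all 9 genes changed (49.7% of all tested genes did), 3 upwards, namely Nos2, Ass1 and Acod1 (25.1% higher), and 6 downwards (24.6%). From 1 to 2 h 7 changed (43.3%), of which 1, Arg2, was lower (21.8%), at −1.46 (SE 0.27, adjusted p 0.000364), and 6 were higher (21.5%). Between 2 and 4 h 3 were higher, Nos2, Sod2 and Hmox1 (22.9% of all tested genes changed and 11.4% were higher). The first count was 4 without replicate 3 in all groups. The second was 4 without LPS 1 h replicate 2 and 4 without LPS 2 h replicate 1. The third was 5 without LPS 2 h replicate 1 and 5 in a fit blocked on the replicate number, both times with Arg2 and Nqo2 added. Several of the smaller steps rested on single samples. From 0.5 to 1 h the fall of Arg2 was lost without LPS 0.5 h replicate 2 or LPS 1 h replicate 3 (−0.67 to −0.68), and that of Hmox1 without LPS 0.5 h replicate 1 (−0.65) or LPS 1 h replicate 2 or 3 (−0.81 to −1.11). From 1 to 2 h the rise of Gch1 was lost without LPS 1 h replicate 2 or 3 or LPS 2 h replicate 1 (0.36 to 0.39), and that of Sod2 without LPS 1 h replicate 2 or 3 or LPS 2 h replicate 1 or 3 (0.33 to 0.40). The same step of Acod1 was lost without LPS 1 h replicate 1 or 2 or any LPS 2 h sample (0.58 to 0.68), and its step from 2 to 4 h, 0.48 with an adjusted p of 0.149, had an adjusted p of 0.0157 without untreated replicate 3.

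Compared directly at the same time, LPS and IL-4 differed for 6 of the 9 genes after 0.5 h (53.8% of all tested genes did), 8 after 1 h (64.5%), 6 after 2 h (68.6%) and 9 after 4 h (68.0%). Among these, LPS was the higher for 5 (18.0%), 7 (24.0%), 6 (26.4%) and 8 genes (26.1%) in turn. Acod1 differed most at each time, by 8.75 (SE 0.52, adjusted p 1.17e-12) at 0.5 h and 11.80 at 2 h (SE 0.52, adjusted p 1.42e-15). Sod2 differed by 4.84 to 5.55, Cybb by 3.92 to 4.64 and Gch1 by 3.23 to 4.46, each with LPS higher at all 4 times and with no overlap of samples. Nos2 had 0 in all 6 samples of both stimuli at 0.5 h, and at 1 h LPS was higher by 4.01 (SE 0.58, adjusted p 2.19e-06). Ass1 did not pass at 0.5 h (0.59, 95% CI −0.26 to 1.44) and was higher in LPS by 6.11 at 2 h (SE 0.41, adjusted p 4.1e-12). Nqo2 was the gene that was lower in LPS, at −1.30 after 0.5 h (SE 0.27, adjusted p 0.000278), −2.68 after 1 h (SE 0.27, adjusted p 7.67e-09) and −0.97 after 4 h (SE 0.27, adjusted p 0.00286). At 2 h the difference of Nqo2 was 0.03 (95% CI −0.53 to 0.59), that of Hmox1 0.24 (95% CI −0.60 to 1.07) and that of Arg2 0.38 (95% CI −0.14 to 0.90). The difference of Hmox1 at 0.5 h, 0.91 (adjusted p 0.0616), passed without LPS 0.5 h replicate 3 (1.21), LPS 2 h replicate 1 (0.91) or IL-4 0.5 h replicate 1 (1.25) and in a fit blocked on the replicate number. The 4 h difference of Arg2, 0.97 (adjusted p 0.00158), was 0.37 after rescaling to equal totals (adjusted p 0.177).

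**Figure D4:**
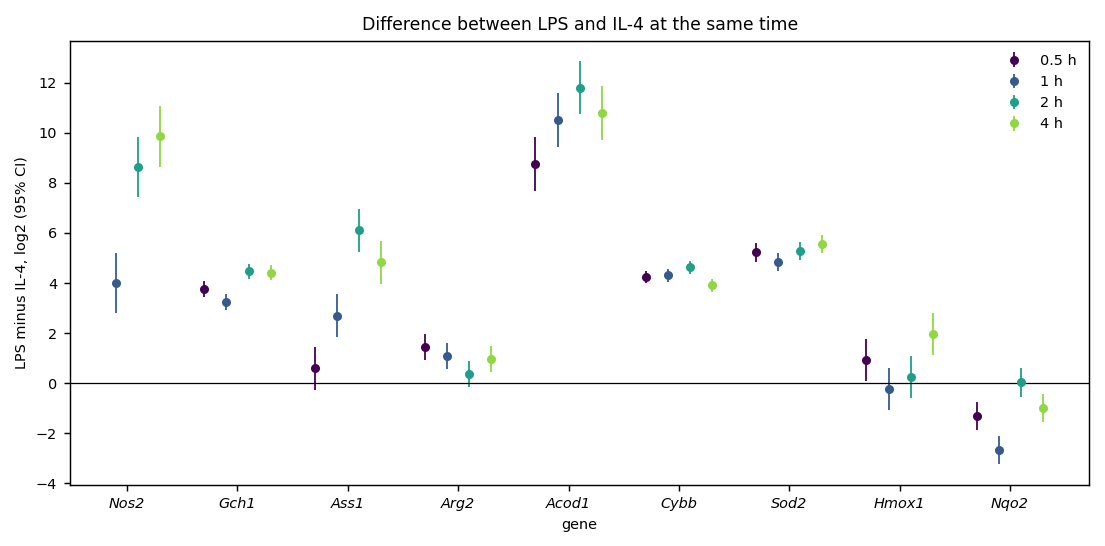
LPS minus IL-4 at the same time for each gene, on the log2(normalised read count + 1) scale, with 95% confidence intervals from the fit of all 27 samples; no point is drawn for Nos2 at 0.5 h, where all 6 samples were at 0. Acod1, Sod2, Cybb and Gch1 lie above 3 at every time, and Nqo2 lies below 0 at 0.5, 1 and 4 h.

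The other genes of the same pathways were taken from lists, which were chosen with earlier results of these data known. Their counts over each course were set beside those of all tested genes. For every list, the shares of all tested genes were 32.9% up and 54.7% down in LPS, and 19.4% up and 20.9% down in IL-4. Of 13 tested genes of arginine transport and use and of nitric oxide synthesis, 7 rose and 4 fell in LPS (53.8% and 30.8%, median of the largest differences 1.48, against 32.9%, 54.7% and −1.0 for all genes). The arginine transporter Slc7a2 rose most. It held 12, 14 and 11 in untreated samples and 1794, 1714 and 1671 at LPS 4 h, a log2 difference of 7.02 (SE 0.14, adjusted p 1.06e-14). In IL-4 it also rose, to 429, 530 and 495 after 1 h (5.19, SE 0.14, adjusted p 1.03e-10), together with the cytosolic arginase Arg1, which went from 6, 7 and 15 to 37, 61 and 85 at IL-4 4 h (2.61, SE 0.43, adjusted p 0.000452). Arg1 did not pass over the LPS course. The IL-4 count was 5 up and 2 down of 13 (38.5% and 15.4%, median 0.54, against 19.4%, 20.9% and −0.16 for all genes), and Slc7a7, which exchanges cationic amino acids, fell by 1.66 at 1 h (SE 0.23, adjusted p 0.00013). The count down was 1 without untreated replicate 2, IL-4 0.5 h replicate 2 or 3, IL-4 1 h replicate 2 or 3 or any IL-4 4 h sample.

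The other tested tetrahydrobiopterin genes did not rise with Gch1, and Spr and Gchfr of the list did not pass the filter on low values. Of 5 tested, 4 fell in LPS (80.0%, median −2.10, against 54.7% and −1.0 for all genes). Among genes with a mean of at least 50 the count down was 1. The dehydratase gene Pcbd2 went from 132, 134 and 134 to 8, 11 and 7 at LPS 1 h (−3.82, SE 0.22, adjusted p 1.2e-09), and Pts, the enzyme after GTP cyclohydrolase, from 49, 49 and 62 to 24, 26 and 26 after 0.5 h (−1.04, SE 0.22, adjusted p 0.00114). At LPS 4 h Pts held 47, 51 and 58, which overlapped its untreated samples. In IL-4 3 of the 5 changed (60.0%, against 40.3% of all tested genes), 1 upwards and 2 downwards.

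Around Acod1, 19 of 21 tested genes of the TCA cycle and of itaconate breakdown fell in LPS (90.5%, median −1.54) and 1 rose, citrate synthase (Cs), by 1.24 at 1 h (SE 0.18, adjusted p 2.53e-05), from 82, 77 and 82 to 204, 181 and 187. Clybl, which takes part in the breakdown of itaconate, went from 112, 142 and 134 to 10, 7 and 16 at LPS 2 h (−3.50, SE 0.23, adjusted p 2.03e-09). Idh2, a mitochondrial isocitrate dehydrogenase, went from 48, 48 and 57 to 5, 3 and 2 at LPS 4 h (−3.64, SE 0.45, adjusted p 3.91e-06). Idh3b of the same list did not pass over the LPS course (adjusted p 0.0903). In IL-4 the count was 15 up and 2 down (71.4% and 9.52%, median 0.49), though 4 were up without replicate 3 in all groups and 8 without replicate 2, and Clybl was among those that rose, to 403, 263 and 271 after 4 h (1.24, SE 0.16, adjusted p 6.28e-05). Without single samples, 2 genes of the list rose in LPS (without replicate 1 of LPS 2 h or of LPS 4 h) and 4 fell in IL-4 (without IL-4 0.5 h replicate 3).

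Of the 7 tested genes of the NADPH oxidase list beside Cybb, 6 rose in LPS (85.7%, median 1.34). The direction is that of the largest difference. Of the 7, 2 passed in both directions at different LPS times (a count made after their values were seen). Ncf1, a cytosolic subunit, went from 229, 282 and 245 to 1337, 1206 and 1303 at LPS 0.5 h (2.35, SE 0.12, adjusted p 4.53e-10), and the GTPase Rac2 from 115, 118 and 168 to 814, 762 and 703 after 4 h (2.52, SE 0.14, adjusted p 2.85e-10). In IL-4 3 of the 7 changed (42.9%, near the 40.3% of all tested genes), and 5 did in a fit blocked on the replicate number. Among the 3, Ncf1 fell by 1.34 at 1 h (SE 0.16, adjusted p 2.6e-05), while Ncf4 rose by 0.68 at 2 h (SE 0.09, adjusted p 8.89e-05).

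Of 20 tested antioxidant enzymes beside Sod2, 10 rose and 8 fell in LPS (median 0.75), and 7 rose and 13 fell after rescaling to equal totals. The cystine transporter Slc7a11 rose most, from 8, 1 and 1 to 1791, 1391 and 1288 after 1 h (8.80, SE 0.59, adjusted p 5.48e-09), and thioredoxin reductase 1 (Txnrd1) went from 230, 208 and 203 to 3612, 2642 and 2841 after 0.5 h (3.81, SE 0.22, adjusted p 1.79e-09). Catalase (Cat) fell by 2.80 at 2 h (SE 0.26, adjusted p 1.25e-07). Both subunits of glutamate-cysteine ligase fell at 4 h, Gclm at −2.34 (adjusted p 0.000477) and Gclc at −2.26 (adjusted p 0.000207). In IL-4 2 rose and 7 fell (10.0% and 35.0%, median −0.59), and 4 rose without IL-4 0.5 h replicate 3. Glutaredoxin (Glrx) rose from 7, 3 and 12 to 92, 104 and 105 after 0.5 h (3.76, SE 0.29, adjusted p 1.02e-06), and Txnrd1 fell by 1.52 at 2 h (SE 0.21, adjusted p 0.000119). The rise of Glrx was not particular to IL-4, as it held 76, 68 and 90 at LPS 4 h (3.39).

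In the list of haem, iron and quinone genes 7 rose and 5 fell of 12 in LPS (58.3% and 41.7%, median 1.08), and 2 rose and 6 fell in IL-4 (66.7% in either direction, median −1.28), with 1 up without IL-4 4 h replicate 3. After rescaling to equal totals the LPS count was 4 up and 8 down. The direction is that of the largest difference, and 4 of the 12, Hmox2, Nfe2l2, Keap1 and Bach1, passed in both directions at different LPS times (a count made after their values were seen). Slc40a1, the iron exporter ferroportin, went from 630, 475 and 431 to 12, 0 and 4 at LPS 4 h (−6.98, SE 0.63, adjusted p 1.01e-07) and to 97, 84 and 77 at IL-4 4 h (−2.55, SE 0.15, adjusted p 4.05e-08). Hmox2, the constitutive haem oxygenase, went from 345, 324 and 320 to 66, 50 and 45 at LPS 1 h (−2.61, SE 0.17, adjusted p 2.8e-09) and stood at 531, 479 and 456 after 4 h, above every untreated sample (0.56, SE 0.17, adjusted p 0.00767), a difference that was −0.044 after rescaling to equal totals (adjusted p 0.816). Biliverdin reductase A (Blvra) fell by 3.29 at 2 h (SE 0.21, adjusted p 1.73e-09). The ferritin heavy chain gene Fth1 moved in opposite directions, with a difference of 2.88 after 4 h of LPS (SE 0.30, adjusted p 4.77e-07) and −1.86 after 2 h of IL-4 (SE 0.26, adjusted p 0.000101). Bach1, a repressor of Hmox1 transcription, went from 341, 280 and 267 to 782, 557 and 568 at IL-4 0.5 h (1.09, SE 0.14, adjusted p 7.09e-05).

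**Figure D5:**
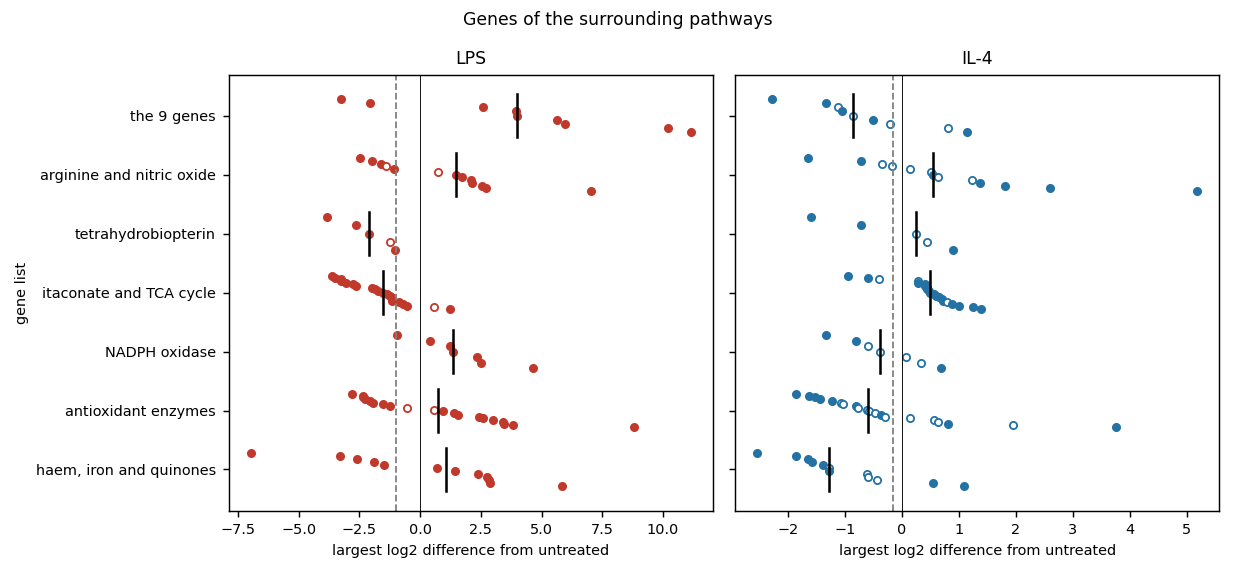
Largest log2 difference from untreated over the 4 times for each tested gene of the 9 and of the 6 pathway lists, in LPS (left) and IL-4 (right); filled points passed the F test over the course, open points did not, black bars are list medians and the dashed line is the median of all tested genes. The TCA cycle list lies mostly below 0 in LPS (median −1.54) and above 0 in IL-4 (median 0.49).

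Set per kilobase of gene span, the untreated order of the means was Cybb at 19.3, Hmox1 at 12.6, Nqo2 at 6.34, Sod2 at 3.14, Gch1 at 1.74, Arg2 at 0.849, Acod1 at 0.453, Ass1 at 0.126 and Nos2 at 0.0254 normalised read counts per kb. At LPS 4 h, Acod1 led with 1197 per kb, ahead of Cybb at 171, Sod2 at 159, Nos2 at 54.2 and Gch1 at 26.6, and Hmox1 at 11.2, Ass1 at 6.55, Nqo2 at 1.86 and Arg2 at 1.66 were lowest. The order between genes depends on the length used. Per kilobase of exon, untreated Sod2 lay below Gch1 and Arg2, and at LPS 4 h Nos2 lay above Sod2. Within single genes, LPS 4 h, 2 h and 1 h stood apart from each other in that order for Nos2, and all 4 LPS groups stood apart for Acod1. Gch1 at LPS 2, 4 and 0.5 h did not differ beyond the spread of the samples.

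The tested genes most like each of the 9 were ranked by Pearson's r over the 9 group means of log2(value + 1), among 7749 genes with a mean of at least 50 in some group and a range of at least 1. These groups share the same untreated samples and the same library scaling, so r is a description only. Nos2 was nearest to Tmem30a (r 0.995), Lipg (0.995) and Daxx (0.994), and Lipg rose from 0 in untreated cells to a mean of 384 at LPS 4 h. Gch1 was nearest to Mrpl52 (0.996), Gm34643 (0.994) and Optn (0.994), and Ass1 to Cnn3 (0.995), Tyk2 (0.992) and Grk3 (0.991). Acod1 was nearest to Mir155hg (0.999), the host gene of miR-155, Traf1 (0.998) and the chemokine gene Ccl5 (0.997). Sod2 shared Traf1 (0.995) with it, beside Birc3 (0.997) and Nfkbia (0.995). Cybb was nearest to the cytokine gene Il1b (0.996), Gm40464 (0.996) and Rap1b (0.995). For the early and brief course of Arg2 the nearest were Rab7 (0.962), A930011G23Rik (0.956) and C920009B18Rik (0.949). Hmox1 had Pltp (0.947), Gm41702 (0.946) and Lyz2 (0.889), and Nqo2 had Arhgap11a (0.978), Usf3 (0.962) and 2610507B11Rik (0.960). Among the 9 themselves, r was 0.98 between Nos2 and Ass1, 0.98 between Gch1 and Cybb, 0.99 between Gch1 and Sod2, and −0.04 between Nos2 and Arg2.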

How the data were processed

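Chromatin-associated RNA was sequenced in 27 samples (Smart-seq2 with random primers, 76-base single-end reads). Per the labels and the methods of the study, the authors aligned reads with TopHat2 2.1.1 to mm10, removed reads with several hits and blacklisted reads (bedtools 2.29.2), counted reads per RefSeq gene (GRCm38.p6) and scaled libraries on invariant genes. The deposited unit is a score here: normalised read counts without decimals, as rounded by the authors, which are no raw counts. Raw depth per library is not given in the sources used here, and the use of strand in counting is not stated. Coordinates are those of the table.

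Values were tested as log2(value + 1), which understates changes of low genes, with limma 3.58.1 in R 4.3.3 (mean-variance trend, Benjamini-Hochberg adjustment over 13901 genes, threshold 0.05). Each course was fitted with the untreated samples, and LPS against IL-4 in all 27 samples. The study's impulse model was not run. The scripts were tested on simulated data. The members, gene lists and markers were chosen with earlier results of these data known. All 9 members are named. From each list, up to 3 genes per direction and stimulus were eligible for naming if they passed the F test, reached a mean of 50 and did not overlap the untreated samples; 3 neighbours per member were named. 1 gene of the NADPH oxidase list is not reported here by name or value, though it stays in the counts of that list. Deviations of same-numbered samples correlated in every pair (lowest r 0.156, 36 pairs per number over 620 genes). This comes from the data and not from a stated batch. The main fits left the replicate number out, so their SEs, intervals and p-values are unpaired. A block on the replicate number was run as an alternative only. Alternatives were other pseudocounts (8, 0.5), filters, scalings, the block, 1 fit of all samples and left-out replicates. Promoters came from RefSeq, matched by symbol.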

Additional observations from a re-analysis of the deposited data

Results flagged for a closer look

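The LPS effect on a gene was looked at again where it differed between successive times, tested as the contrast of the later against the earlier time in the LPS fit (limma, adjusted over all tested genes). From 0.5 to 1 h the change was 4.78 for Nos2, 1.97 for Ass1 and 1.49 for Acod1, against −0.39 for Gch1, −0.85 for Arg2, −0.51 for Cybb, −0.54 for Sod2, −1.11 for Hmox1 and −1.18 for Nqo2, so 3 genes were higher and 6 lower at the later time. From 1 to 2 h it was 4.39 for Nos2, 3.54 for Ass1, 2.24 for Nqo2, 0.65 for Acod1, 0.43 for Gch1, 0.39 for Sod2 and −1.46 for Arg2. From 2 to 4 h it was 1.88 for Nos2, 1.88 for Hmox1 and 0.56 for Sod2. Adjusted p ranged from 2.85e-08 to 0.032 over these 19 steps, and 49.7%, 43.3% and 22.9% of all tested genes changed in the 3 steps.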

How the results depend on the processing

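Among the 9 genes no direction of a called value turned under the alternatives, for the comparisons with untreated cells, the steps of both courses and LPS against IL-4. Of the named genes of the pathway lists, each recomputed at its largest difference, none turned, while Hmox2 at LPS 4 h went to −0.044 after rescaling to equal totals. Averaging replicates 2 and 3 gave 5 genes between LPS 0.5 and 1 h, 1 between 2 and 4 h, 1 at IL-4 0.5 h, 1 at IL-4 1 h, 2 at IL-4 4 h and 3 over the IL-4 course. A mean of at least 50, which left 7 of the 9 genes (not Arg2 and Hmox1), gave 1 at IL-4 0.5 h, 2 at IL-4 1 h and 3 over the IL-4 course. At IL-4 1 h, no filter and the fit of all 27 samples gave 2 each. The replicate block gave 5 between LPS 2 and 4 h, where Arg2 and Nqo2 were added, and it added Hmox1 at LPS 0.5 h and in LPS against IL-4 at 0.5 h and Nqo2 from IL-4 1 to 2 h (−0.47), and changed no other call of the 9 genes. Leaving out samples gave 4 to 9 genes between LPS 0.5 and 1 h, 4 to 7 between 1 and 2 h, 1 to 5 between 2 and 4 h, 0 to 4 at IL-4 0.5 h, 1 to 4 at IL-4 1 h, 2 to 4 at IL-4 4 h and 2 to 5 over the IL-4 course. The count of 0 at IL-4 0.5 h came without replicate 2 in all groups, where limma gave 3 of the 9 genes at an unadjusted p under 0.05. In the pathway lists the block gave 2 TCA cycle genes up in LPS in place of 1 and 4 NADPH oxidase genes down in IL-4 in place of 2. The IL-4 counts of the lists moved most without replicate 2 or 3 in all groups: the TCA cycle genes up went from 15 to 8 and 4, and the arginine genes up from 5 to 2 without replicate 2. The cause of these changes was not tested.

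The 9 genes kept their call over the LPS course in every alternative that tested them. Values of a few reads (Nos2, Ass1 and Acod1 outside LPS) limit what can be seen there, and folds of low genes depend on the pseudocount: Nos2 at LPS 1 h was 3.92 on the log2 scale and 1.95 with a pseudocount of 8.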
